A study of Mus musculus with 16 samples.

Results

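The transcripts described here were nearly private to lungs of the A/J strain. A gene was taken when its mean over the 8 A/J libraries was at least 1 CPM (counts scaled to 1000000 gene counts per library) and its mean over the 8 B6 libraries was under that A/J mean divided by 8. Symbols beginning with H2-, Gbp, Hba or Hbb, and Lrat, were left out. The rule gave 73 of the 57180 genes in the files, or 73 of the 14511 genes that reached 1 CPM over A/J, after Lrat and Gbp2b had been left out by symbol. The set was thus chosen by its A/J and B6 levels, so those levels are given as a description with no test.

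RNA came from lungs of fetuses, given as male in the design text, at E14.5 (embryonic day), in 4 groups of 4 libraries. B6 control and A/J control were fetuses of C57BL/6J and A/J dams given corn oil, and B6 BMS493 and A/J BMS493 were fetuses of dams given 3.75 µg per g per day of BMS493. BMS493 is a pan-RAR inverse agonist, which holds the receptors for retinoic acid in their repressing state, and dams took it or the oil by mouth from E9.5 to E14.5. The study asks how strain and a short loss of vitamin A signalling before birth bear on reactive airways. Litters are not named in the labels, so p-values measure only the spread between these libraries.

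Gene counts ranged from 15207539 to 24146224 per library, with a median of 21339798 in A/J and 19794345 in B6. Reads placed at several sites made up 3.90% ± 0.134 (SD, n = 8) of A/J libraries and 3.16% ± 0.156 (SD, n = 8) of B6 libraries. All 13 lung genes of a fixed marker list reached 1 CPM in both strains, while none of the 7 thymus and none of the 6 germ cell genes did in either. Genes of other cell types were also counted: in both strains 6 of 6 macrophage, 5 of 6 heart, 5 of 6 neural, 4 of 6 mast cell and 4 of 5 erythroid genes reached 1 CPM. The summed heart genes had 42.4 to 77.6 CPM in A/J controls against 77.5 to 92.3 CPM in B6 controls, and overlapped with BMS493 (59.6 to 78.7 CPM in A/J and 41.2 to 88.6 CPM in B6). The summed mast cell genes had 59.9 to 71.4 CPM against 90.1 to 101.2 CPM in controls, and 61.7 to 68.2 CPM against 74.6 to 114 CPM with BMS493. The summed liver genes overlapped, with 1.95 to 2.39 CPM in A/J controls and 2.04 to 13.5 CPM in B6 controls. The part of these cells in the results was not tested. These were bulk samples, in which fewer cells of a type and less RNA per cell cannot be told apart.

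Mammalian genomes carry many processed pseudogenes, which arise when a messenger RNA is copied back into DNA and inserted elsewhere without its introns. Genes with abundant messenger RNA, such as those for ribosomal proteins and enzymes of sugar breakdown, have left many such copies. Inbred mouse strains differ in which copies they carry, in the bases of the copies and of the parent genes, and in gene segments that were lost or duplicated. A read from a near-identical pair is placed by the few bases that differ, in the reference to which all reads are aligned, and that reference is the C57BL/6J genome.

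The set was made up mostly of pseudogenes. GENCODE M21 listed 70 of the 73 transcripts, and 45 of these (64.3%) were pseudogenes, 43 of them processed, against 4.12% of the 14343 listed genes at 1 CPM or more over A/J. Protein-coding genes made up 17 of the 70 (24.3%), against 90.2% of the 14343. The other 8 were long noncoding transcripts. Of the 73, 38 carried the symbol of a predicted gene (Gm and a number). Chromosomes 17 and 18 held 8 transcripts each, or 11.4% of the 70, against 4.73% and 2.79% of the genes at that level. Chromosome 11 held 7, and chromosomes 15 and 16 held none. Start and end positions are not given, because the files were made on GRCm39 and the annotation used here is on GRCm38.

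Nearly all of the counts belonged to copies of other genes. For 52 of the 73, a protein-coding gene elsewhere in the genome matched the longest transcript over 50% or more of its length, with an identity of 95% or more. Where several genes matched, those in the set were left out and protein-coding genes were preferred. The best-scoring of these is called the closest gene here, so a pseudogene outside the set may match better. This closest gene lay on another chromosome for 45 of the 52. The median identity was 98.9% (95.2% to 100%), with a median of 5.5 mismatched bases, and 24 of the 52 were at 99% or more. These 52 copies held 94.5% of the summed CPM of the set in A/J. They comprised 44 pseudogenes, 5 coding genes (Hmga1b, Eno1b, Eif3j2, AK157302 and Gm12666) and 3 noncoding transcripts (Gm49083, BC023719 and AC166110.4). Windows of 50 bases that also occur in another gene made up a median of 58.6% of the windows of a transcript in the set, against 0.166% over all genes at 1 CPM or more. Over 10% of windows were shared in 54 of 70 transcripts (77.1%), against 20.6% of those genes.

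The closeness is shown for the 4 pseudogenes with the highest A/J counts, each beside its closest gene. Each stretch holds 60 bases of the coding sequence, 5′ to 3′, from GENCODE M21 on GRCm38, and capitals mark the bases at which the pair differs. The lines give first Gm15459 (chromosome 5) and Hspa8 (chromosome 9), which encodes a heat shock cognate chaperone.
Gm15459: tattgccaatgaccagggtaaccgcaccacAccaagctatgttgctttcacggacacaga
Hspa8: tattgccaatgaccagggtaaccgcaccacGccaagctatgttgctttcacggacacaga
Next come Rps3a3 (chromosome 13) and Rps3a1 (chromosome 3), which encodes a protein of the small ribosomal subunit.
Rps3a3: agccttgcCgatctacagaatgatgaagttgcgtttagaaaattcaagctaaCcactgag
Rps3a1: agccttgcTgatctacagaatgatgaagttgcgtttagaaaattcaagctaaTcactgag
Then follow Gm15772 (chromosome 5) and Rpl26 (chromosome 11), which encodes a protein of the large ribosomal subunit.
Gm15772: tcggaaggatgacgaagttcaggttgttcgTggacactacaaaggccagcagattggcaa
Rpl26: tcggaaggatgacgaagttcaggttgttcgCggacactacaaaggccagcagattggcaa
The last pair is Gm13394 (chromosome 2) and Gapdh (chromosome 6), which encodes an enzyme of glycolysis.
Gm13394: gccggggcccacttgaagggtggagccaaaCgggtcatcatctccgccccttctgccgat
Gapdh: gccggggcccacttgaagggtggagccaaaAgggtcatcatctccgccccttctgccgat

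Written with the base of the closest gene first and counted from the first base of its coding sequence, the differences in these stretches were G114A in Gm15459, T216C and T260C in Rps3a3, C177T in Gm15772 and A346C in Gm13394. Over the whole coding sequence, Gm15459 differed from Hspa8 at 5 of 1938 bases, Rps3a3 from Rps3a1 at 9 of 792, Gm15772 from Rpl26 at 2 of 435, and Gm13394 from Gapdh at 1 of 999. These are bases of the C57BL/6J reference, and the A/J sequence was not analysed here.

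The levels that chose the set were as follows, with no test. The A/J mean ranged from 1.03 to 439 CPM (median 7.74) and the B6 mean from 0.00518 to 26.8 CPM (median 0.371). CPM is not scaled by length, so it is read within a gene and not between genes. The median ratio of the A/J to the B6 mean was 24.9, with 28 transcripts under 16, 30 from 16 to 100 and 15 above 100. None of the 73 was without a count in B6: 44 were counted in all 8 B6 libraries and 8 had 1 to 3 counts over those libraries. The summed level of the set was 2921 to 3170 CPM in A/J libraries and 116 to 149 CPM in B6 libraries. The lowest A/J library lay above the highest B6 library for 71 of the 73, a pattern seen in 4.67% of all genes at 1 CPM or more over A/J. The rule itself sets most of that count, and nothing is read from it. The exceptions were Usp9y and Slc28a1. Transcripts near the limits depended on which libraries were averaged: with the BMS493 libraries alone 66 of the 73 met the rule (Clec3b, Tdrd9, Gpr75 and Usp9y were among those that did not), and with replicates 1 and 2 alone also 66 (Sall4, Tdrd9, Gpr75 and Slc28a1 were among those that did not).

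**Figure D1:**
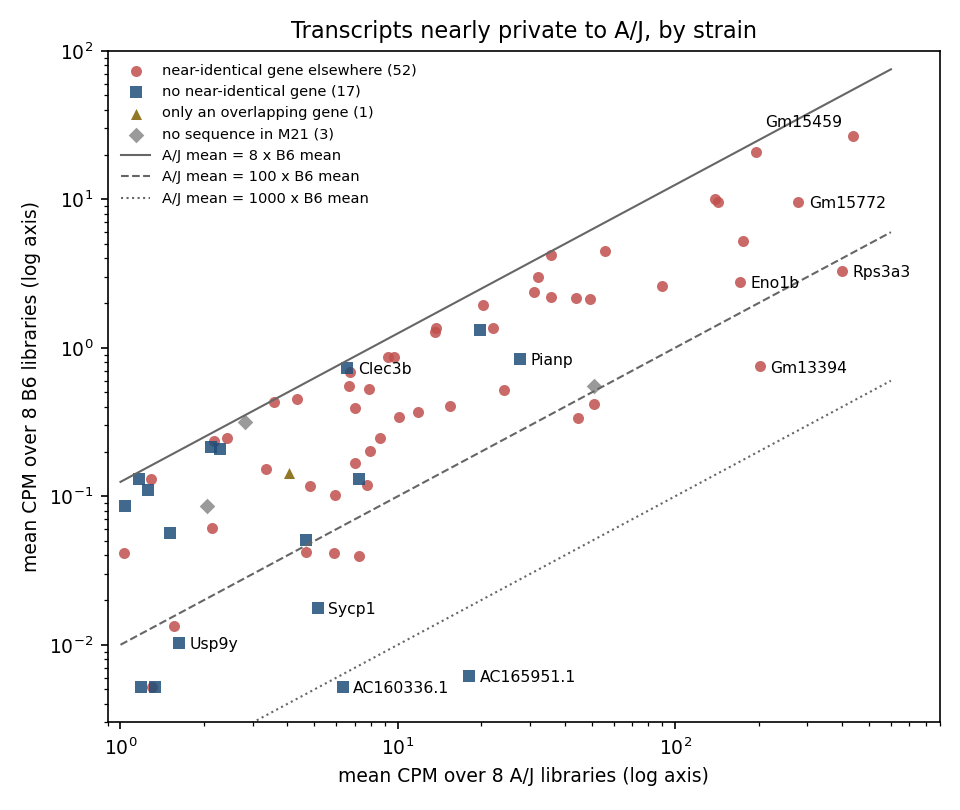
Mean CPM of each of the 73 transcripts over the 8 A/J libraries (horizontal) and the 8 B6 libraries (vertical), both on log axes, with lines at A/J means of 8, 100 and 1000 times the B6 mean. The transcripts with the highest A/J levels are copies of other genes (circles), and the 2 transcripts below the lowest line have no near-identical gene (squares).

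Of the transcripts nearest the ratio limit, Amd-ps3 (ratio 8.31), Gm10093 (8.39) and ENSMUSG00000120850 (8.80) lay inside it. Gm20075 (7.89), Gm12663 (7.85) and Gm4815 (7.76) lay just outside. At the level limit, Gm12247 (1.03 CPM over A/J) and Slc28a1 (1.04 CPM) lay inside, and ENSMUSG00000120784 (0.989 CPM) and Slc22a29 (0.932 CPM) lay outside.

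Among the copies of genes for ribosomal proteins, Rps3a3 had 373, 387, 419.7 and 434 CPM in the A/J controls, with 398, 366, 411 and 421 CPM in the treated A/J libraries. In B6 it had 3.79, 2.40, 2.72 and 3.22 CPM in controls and 2.24, 2.95, 6.18 and 2.75 CPM with BMS493. All 8 A/J libraries were high and close together, all 8 B6 libraries were low, and the strains did not overlap. Gm15772 had 268 to 292 CPM in A/J controls, with 250.5 to 297 CPM in the treated A/J libraries, against 8.47 to 10.4 CPM over B6. Rps3a2, a further copy of Rps3a1, averaged 139 CPM ± 13.3 (SD, n = 8) in A/J and 10.1 CPM ± 2.83 (SD, n = 8) in B6. Gm8730 and Gm14165, copies of Rplp0, averaged 196 CPM ± 19.2 and 49.4 CPM ± 4.11 in A/J (SD, n = 8 each), against 20.7 and 2.11 CPM in B6. Rplp0 encodes an acidic stalk protein of the ribosome.

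Copies of glycolysis genes formed another group. Gm13394 had 202, 195, 217 and 216 CPM in A/J controls, with 181, 188, 216 and 204 CPM in the treated A/J libraries. Its B6 values were 0.718, 0.290, 0.545 and 0.788 CPM in controls and 1.49, 0.759, 0.723 and 0.687 CPM with BMS493. The strains did not overlap, and the B6 BMS493 library with 1.49 CPM stood above the other 7 B6 libraries. Eno1b, a coding copy of the enolase gene Eno1, had 155 to 184 CPM in A/J controls, with 158 to 196 CPM in the treated A/J libraries, against 1.38 to 4.01 CPM over B6. Gm4735, also closest to Eno1, averaged 143 CPM ± 11.7 in A/J and 9.59 CPM ± 2.13 in B6 (SD, n = 8 each).

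Further copies, the highest one and the coding ones among them, matched genes with other roles. Gm15459, the copy of Hspa8, had 379 to 494 CPM in A/J controls, with 429 to 516 CPM in the treated A/J libraries, against 22.3 to 32.8 CPM over B6. Hmga1b, a coding copy of the chromatin protein gene Hmga1, averaged 176 CPM ± 9.70 in A/J and 5.21 CPM ± 0.606 in B6 (SD, n = 8 each). Gm7993, a copy of Odc1, which encodes the first enzyme of polyamine synthesis, averaged 90.0 CPM ± 10.2 and 2.61 CPM ± 0.614. Eif3j2, a coding copy of the translation initiation factor gene Eif3j1, averaged 31.0 CPM ± 4.20 and 2.36 CPM ± 0.609. AK157302, closest to the iron-sulphur cluster gene Isca1, averaged 9.67 CPM ± 0.864 and 0.864 CPM ± 0.416. Gm12666, closest to Larp7, averaged 4.67 CPM ± 0.491 and 0.0424 CPM ± 0.0393. Each of these 6 had its lowest A/J library above its highest B6 library.

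**Figure D2:**
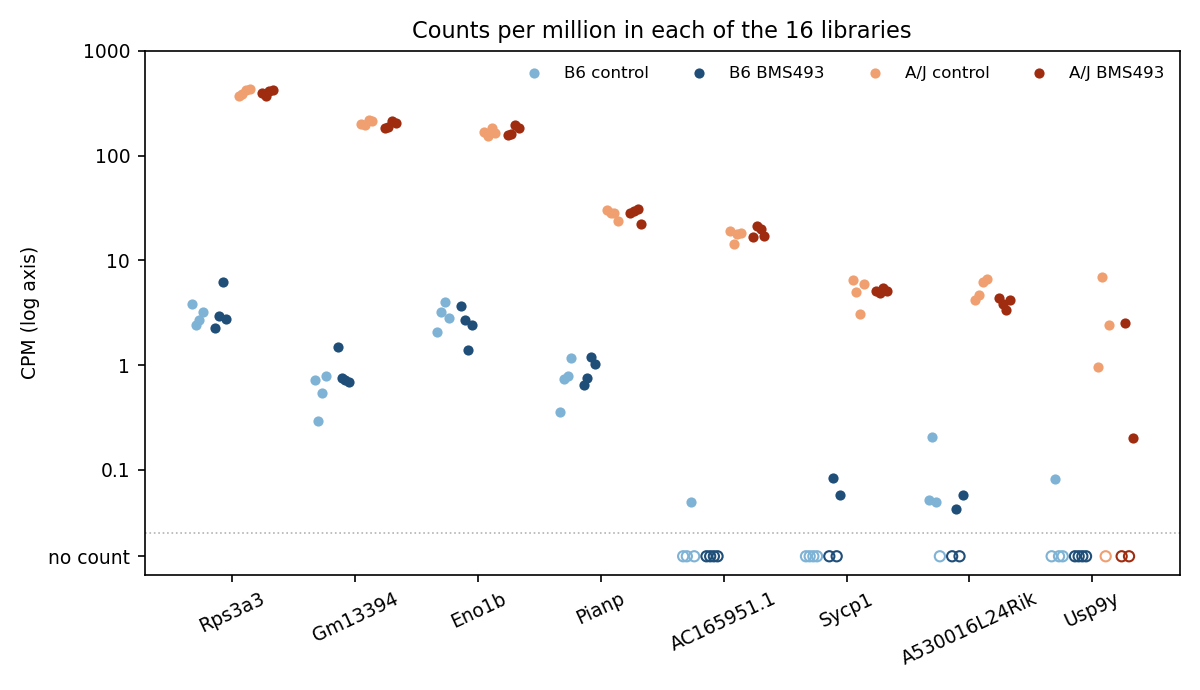
CPM on a log axis for 8 transcripts of the set in each of the 16 libraries, coloured by group, with open circles for libraries without a count. For 7 of the 8 transcripts every A/J library lies above every B6 library, and Usp9y has 3 A/J libraries without a count.

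The closest genes of the copies are not in the set, and their levels in the 2 strains were compared after the sequences had been matched. Reads of a near-identical pair can be placed on either gene, so the values of a closest gene are coupled to those that the rule used. The counts of calls below are therefore a description and no independent test. The 52 copies had 47 closest genes, of which 46 passed the filter on low counts, Ptp4a1 being the exception. In controls, 28 of the 46 were lower and 3 higher in A/J at an adjusted p under 0.05 (edgeR quasi-likelihood test, Benjamini-Hochberg over 17276 genes). Over all genes tested, 9.84% were lower and 7.04% higher. With BMS493, 28 were lower and 2 higher, against 12% and 7.93% of all genes. The median log2 fold change of A/J over B6 was -0.42 in controls and -0.56 with BMS493 for the closest genes, and 0.01 and 0.00 over all genes tested. Without overlap between the 8 libraries of each strain, 25 of the 47 were lower in A/J and 2 were higher, against 5.19% and 4.1% of the genes tested.

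Rpl26 had the lowest ratio of the 47. It had 20.5 CPM ± 6.44 in A/J, from 15.1 to 35.5 CPM, and 472 CPM ± 24.4 in B6, from 444 to 523 CPM (SD, n = 8 each), which left a wide gap between strains. The difference in controls was -4.46 ± 0.21 on the log2 scale (SE, edgeR). Rps3a1 had 235 CPM ± 26.2 in A/J and 1158 CPM ± 199 in B6, with a log2 fold change of -2.20 ± 0.13 in controls (SE, edgeR). Its B6 libraries had a lowest value of 1048 CPM, a median of 1086 CPM and a highest value of 1645 CPM, the last with BMS493. Hspa8 averaged 1302 CPM in A/J and 1944 CPM in B6 (log2 fold change in controls -0.72 ± 0.10, SE, edgeR). Hmga1 averaged 103 and 219 CPM (-1.11 ± 0.12, SE, edgeR). Gapdh averaged 1403 and 1621 CPM, the strains overlapped, and the log2 fold change was -0.20 ± 0.07 in controls and -0.24 ± 0.07 with BMS493 (SE, edgeR).

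**Figure D3:**
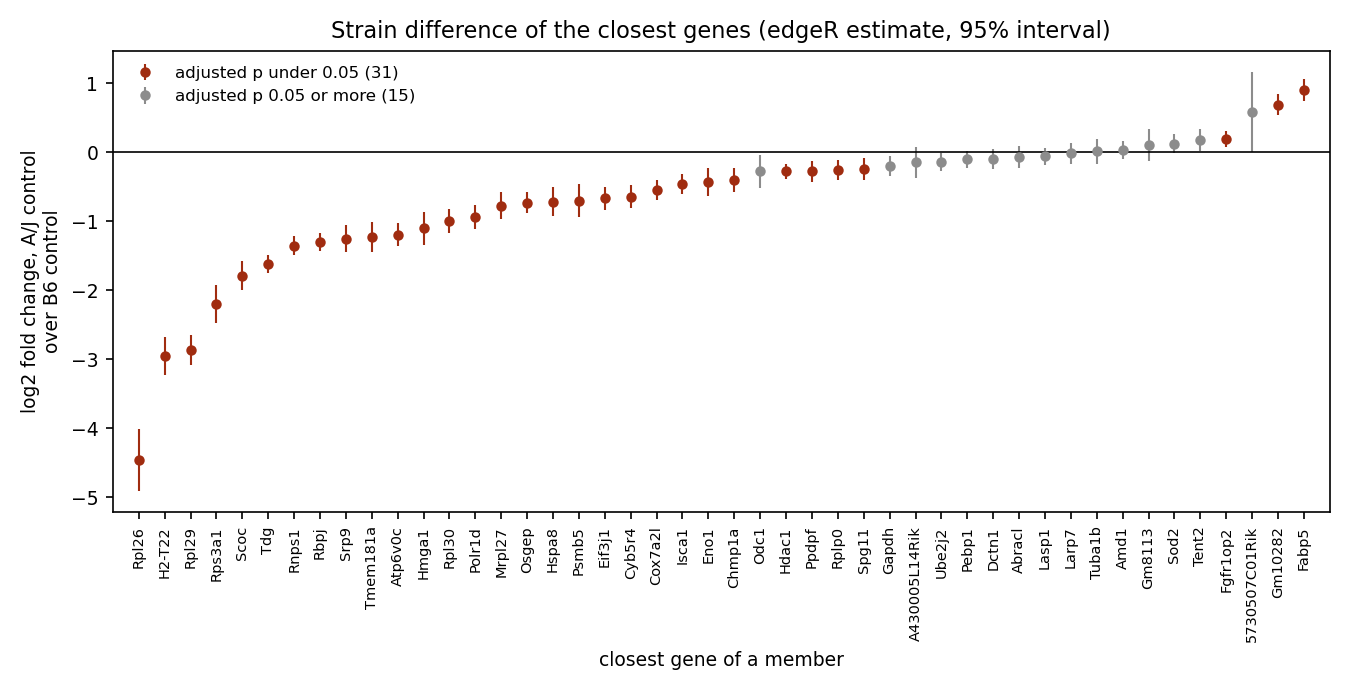
Log2 fold change of A/J control over B6 control for the 46 tested closest genes, as the edgeR estimate with its 95% interval, coloured by whether the adjusted p was under 0.05 (31 genes) or not (15 genes). The estimates run from -4.46 for Rpl26 to 0.90 for Fabp5, and 28 of the 31 coloured genes lie below 0.

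Each closest gene was also added to its copies in the set. Near-identical genes outside the set were not added, so a sum is not the total of a gene family. In all, Gm13394 had 72 near-identical genes, and Gm13841 and Gm8210 had 30 each. The rule had made every copy higher in A/J, so the addition raises each ratio of A/J to B6 by construction, and the sums are a description with no test. The ratio of A/J to B6 means had a median of 0.706 (0.0434 to 3.17) for the closest genes alone and 0.974 (0.196 to 8.50) for the sums with their copies. Both upper ends were those of Ptp4a1, which had too few counts to test, and without it the highest ratios were 1.93 (Fabp5) and 2.24 (5730507C01Rik with its copy). Ratios from 0.8 to 1.25 were found for 18 of 47 closest genes and for 27 of 47 sums. For the sums, the strains overlapped in 28, all A/J libraries were below all B6 libraries in 14, and the reverse held in 5. Over the 47, the closest genes summed to 9467 CPM in A/J and 13621 CPM in B6, a fall of 4153 CPM, and the copies to 2876 and 127 CPM, a rise of 2749 CPM. Whether reads from one gene of a pair had been placed on the other was not tested, since reads were not analysed here.

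Individual sums took different forms. Gm13394 with Gapdh summed to 1605 CPM ± 79.8 in A/J and 1622 CPM ± 139 in B6, a ratio of 0.990, and Gm13394 held 12.6% of the sum in A/J and 0.0463% in B6. Gm6969 with Cox7a2l, a gene of the respiratory chain, summed to 150.3 CPM in A/J and 148 CPM in B6, and Eif3j2 with Eif3j1 to 77.2 and 76.3 CPM. Eno1b and Gm4735 with Eno1 summed to 1185 and 1246 CPM, with the copies at 26.5% of the sum in A/J and 0.992% in B6. In all 4 cases the strains overlapped in the sum.

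Other sums, again without near-identical genes outside the set, stayed lower in A/J. Gm15772 with Rpl26 summed to 298 CPM ± 18.7 in A/J and 481 CPM ± 24.5 in B6, with Gm15772 at 93.1% of the sum in A/J and 2.00% in B6. Rps3a3 and Rps3a2 with Rps3a1 summed to 775 and 1171 CPM. Gm9855 with Tdg, which encodes a DNA glycosylase, summed to 94.0 and 152 CPM, and Rbpj-ps3 with Rbpj, the DNA-binding factor of Notch signalling, to 71.5 and 144 CPM. The lowest ratio was that of Gm13841 and Gm8210 with Rpl29, whose sum was 85.8 CPM ± 6.58 in A/J and 438 CPM ± 44.4 in B6. Hmga1b with Hmga1 went the other way, at 279 CPM ± 16.6 in A/J and 224 CPM ± 30.5 in B6, with overlap. Fabp5, which encodes a fatty acid binding protein, was itself higher in A/J, at 73.05 CPM ± 4.05 against 37.8 CPM ± 4.24 in B6, beside its copy Gm6166 at 8.62 and 0.247 CPM (SD, n = 8 throughout). The annotation entry matched for Ptp4a1, a phosphatase gene, was identical to Gm15801 over its 522 aligned bases. This entry had 0.188 CPM in A/J and 0.0595 CPM in B6, too few counts to test. Gm15801 had 6 near-identical genes, this entry among them, so these values are not read as the level of Ptp4a1. BC023719, annotated as antisense, was closest to the class I gene H2-T22 on the same chromosome, but matched its opposite strand. H2-T22 had 2.49 CPM in A/J and 19.6 CPM in B6.

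**Figure D4:**
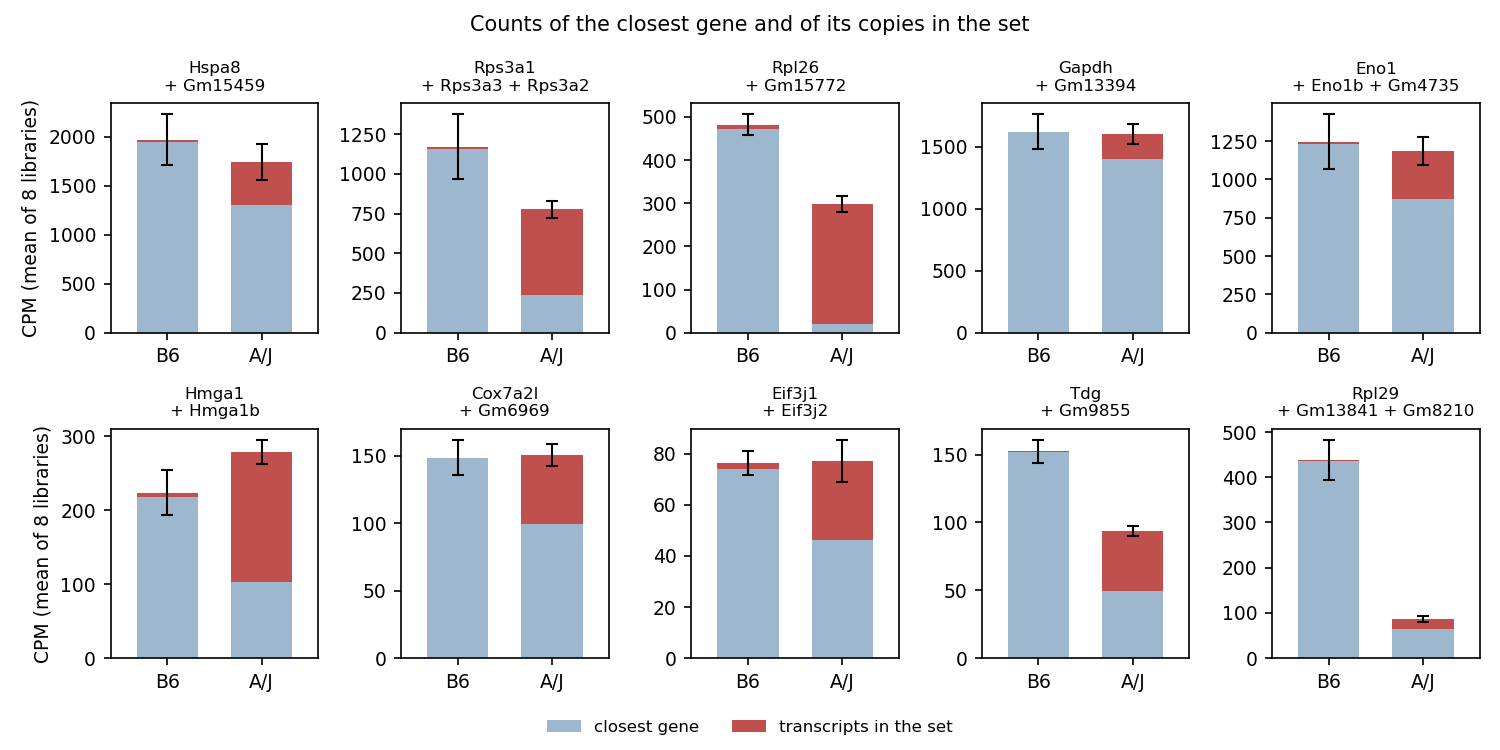
Stacked mean CPM of 10 closest genes (blue) and of their copies in the set (red) over the 8 libraries of each strain, with the SD of the sum as the bar and each panel on its own linear axis from 0. The red part is larger in A/J than in B6 in every panel and is a minor part of the Gapdh bar (12.6% in A/J), while the height of the whole bar differs little for Gapdh and Cox7a2l and greatly for Rpl29.

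Of the remaining 21 transcripts, 17 had no near-identical gene, Masp2 had only an overlapping gene, and 3 had no sequence in M21. Masp2, a serine protease of the lectin pathway of complement, had 3.35 to 4.54 CPM in A/J and at most 0.263 CPM in B6. It shares 57.0% of its longest transcript with the neighbouring gene Tardbp, and its level depended on the column read. By the first and the second strand-specific count it had 37.9 CPM ± 5.35 and 43.1 CPM ± 6.02 in A/J against 29.3 CPM ± 5.14 and 35.3 CPM ± 4.22 in B6 (SD, n = 8 each). By either of these it did not meet the rule. The unstranded files list reads that overlap several genes apart, as ambiguous. The 3 without sequence were ENSMUSG00000120928, at 51.0 CPM ± 3.02 in A/J and 0.549 CPM ± 0.196 in B6 (SD, n = 8 each), ENSMUSG00000120850 and ENSMUSG00000120923.

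Pianp, a neuronal membrane protein that binds the receptor PILRA, led the coding genes without a copy. It had 29.9, 28.2, 28.5 and 23.9 CPM in A/J controls, with 28.2, 29.6, 30.9 and 22.0 CPM in the treated A/J libraries. Its B6 values were 0.359, 0.745, 0.792 and 1.18 CPM in controls and 0.647, 0.759, 1.18 and 1.03 CPM with BMS493. The strains were far apart, and none of its 50-base windows occurred in another gene. Clec3b, the plasminogen-binding protein tetranectin, had 4.29 to 9.32 CPM in A/J and 0.149 to 1.14 CPM in B6, without overlap. Sall4, a transcription factor of early embryonic and germ line cells, averaged 2.29 CPM ± 0.449 in A/J and 0.207 CPM ± 0.185 in B6 (SD, n = 8 each). Cort, which encodes the neuropeptide cortistatin, averaged 2.12 CPM ± 0.366 and 0.215 CPM ± 0.141.

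Sycp1, which encodes the transverse filament of the synaptonemal complex that joins chromosomes in meiosis, had 6.495, 5.01, 3.08 and 6.01 CPM in A/J controls, with 5.12, 4.84, 5.42 and 5.15 CPM in the treated A/J libraries. In B6 it had no count in 6 libraries and 0.0843 and 0.0573 CPM in the other 2, both with BMS493. That was 862 counts in A/J against 3 in B6, a ratio of 265 (95% interval 90.3 to 1287, counting error only). The other 24 genes of a meiosis list did not follow Sycp1 as a group: in controls, 2 of the 10 that could be tested were higher in A/J and 3 lower (edgeR, adjusted p under 0.05), beside the 7.04% and 9.84% of all genes. Stag3, a cohesin subunit of meiosis, was higher in A/J controls (11.9 CPM ± 1.35 against 6.07 CPM ± 0.336, SD, n = 4 each). Rec8, the meiotic cohesin kleisin, was lower (2.57 CPM ± 0.318 against 23.3 CPM ± 2.67, SD, n = 4 each). Syce3 had no count in any library, and none of the 6 germ cell markers reached 1 CPM. The summed germ cell level was 0.525 to 1.77 CPM in A/J controls and 1.51 to 2.15 CPM in B6 controls, and its part in the level of Sycp1 was not tested.

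Eno1b was the glycolysis gene of the set. Of the 17 other glycolysis genes on the list, 2 were higher and 1 was lower in A/J controls, beside 7.04% and 9.84% of all genes, and 2 were higher and 3 lower with BMS493, beside 7.93% and 12%. In controls the higher genes were Pgam1 (log2 fold change 0.32 ± 0.08, SE, adjusted p = 0.00584, edgeR) and Eno2 (0.68 ± 0.18, SE, adjusted p = 0.00978, edgeR), and the lower gene was Eno1 (-0.43 ± 0.10, SE, adjusted p = 0.00413, edgeR), the closest gene of Eno1b.

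A530016L24Rik, on chromosome 12, had 4.20, 4.62, 6.24 and 6.58 CPM in A/J controls, with 4.37, 3.83, 3.36 and 4.15 CPM in the treated A/J libraries, and at most 0.207 CPM in B6. The strains did not overlap. Tdrd9, a helicase of the piRNA pathway that silences transposons, lay within 5 tested genes of it and had 0.934 to 2.06 CPM in A/J and at most 0.448 CPM in B6. Tdrd9 and the next 4 genes were chosen for description after their values had been seen. Ifi202b, an interferon-inducible gene of the p200 family, had 0.621 to 1.80 CPM in A/J, and 226 counts there against 1 in B6 gave a ratio of 208 (95% interval 37.0 to 8265). Gpr75, a membrane receptor, averaged 1.17 CPM ± 0.352 in A/J and 0.131 CPM ± 0.134 in B6 (SD, n = 8 each). Slc28a1, a nucleoside transporter, averaged 1.04 CPM ± 0.487 and 0.0861 CPM ± 0.126, with no count in 1 A/J control library.

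Usp9y, a deubiquitinase gene on the Y chromosome, was the most uneven of the coding genes. It had 0.955, 6.91, 0 and 2.40 CPM in A/J controls, with 0, 2.51, 0 and 0.200 CPM in the treated A/J libraries. In B6 it had 0.0828 CPM in 1 control library and no count in the other 7. It was thus counted in 5 of 8 A/J libraries, and both A/J groups overlapped B6. Over all libraries this was 283 counts against 2, a ratio of 130.4 (95% interval 35.8 to 1082, counting error only). A/J control replicate 2 alone held 160 of the 283 counts. Without it the ratio was 65.7 (95% interval 17.8 to 549), the A/J mean was 0.867 CPM in place of 1.62, and Usp9y did not meet the rule. The 4 other Y-linked genes looked at, Ddx3y, Eif2s3y, Kdm5d and Uty, were counted in all 16 libraries, with a lowest value of 24.9 CPM, and Xist reached at most 0.498 CPM.

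The 2 highest ratios belonged to long noncoding transcripts. AC165951.1, annotated as antisense on chromosome 17, had 19.2, 14.3, 17.9 and 18.1 CPM in A/J controls and 16.8, 21.1, 20.04 and 17.1 CPM with BMS493. Its 3048 counts in A/J stood against 1 count in B6, a ratio of 2810 (95% interval 503.9 to 111016). AC165951.5 (1.51 CPM over A/J) lay within 5 tested genes of it along chromosome 17, and the noncoding AC125544.1 (1.19 CPM over A/J) within 5 of AC165951.5. Glp1r, the receptor of the gut hormone GLP-1, lay next to both AC165951.1 and AC165951.5 and was lower in A/J controls (1.96 CPM ± 0.504 against 11.3 CPM ± 1.51, SD, n = 4 each, log2 fold change -2.51 ± 0.44, SE, adjusted p = 0.00112, edgeR). Dnah8, a dynein heavy chain gene next to AC165951.5, was higher (10.4 CPM ± 2.59 against 4.91 CPM ± 1.00, SD, n = 4 each, 1.07 ± 0.24, SE, adjusted p = 0.00288, edgeR).

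Further transcripts of the set lay near each other. Gm49083 and AC160336.1 were within 5 tested genes on chromosome 14, and Gm3650 and Eif3j2 lay next to each other on chromosome 18. Over the whole set, 135 tested genes that are not in it lay next to one of its transcripts. In controls, 12 were higher and 14 lower in A/J, together 19.3%, against 16.9% of all genes tested. With BMS493, 13 were higher and 23 lower, together 26.7%, against 20%, and a fit of only the 8 libraries compared called 21 in place of 36. The share called was thus near the background in controls. Next to Rps3a2, Pcdh20, a protocadherin, was lower in A/J controls (0.308 CPM ± 0.0898 against 2.28 CPM ± 0.385, SD, n = 4 each). Next to BC023719, H2-T10 was higher (5.45 CPM ± 1.29 against 1.33 CPM ± 0.503, SD, n = 4 each). Next to A530016L24Rik, Kif26a was lower (34.4 CPM ± 5.17 against 45.8 CPM ± 1.95, SD, n = 4 each). Neither neighbour of Pianp or of Sycp1 passed in controls.

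The spread among libraries of a group was larger for the set than for other genes. The median SD of log2 CPM was 0.199 for A/J controls and 0.161 with BMS493 in that strain, against 0.130 and 0.109 over all genes at 1 CPM or more. Rps3a3 stayed within 366 to 434 CPM over the 8 A/J libraries and Hmga1b within 161 to 187 CPM, while Gm8210 went from 5.83 to 13.2 CPM and Tmem181c-ps from 3.50 to 8.79 CPM.

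The effect of BMS493 on the set was a question the rule had not used. In A/J, 1 of the 73 transcripts was called lower and none higher (edgeR, adjusted p under 0.05), against 0.423% and 0.0637% of the 17276 genes tested (0.486% in either direction). At an unadjusted p under 0.05, 3 of the 73 were found, against 6.23% of all genes. The median log2 fold change was -0.02 over the 73 and 0.00 over all genes, with 31 above and 42 below 0. The 95% interval lay within 1 log2 unit of 0 for 65 of the 73. On the same fit, 5 of 10 retinoic acid target genes on a fixed list were lower with BMS493 in A/J and 6 in B6. Dhrs3, a retinal reductase, fell from 17.6 CPM ± 2.18 to 4.22 CPM ± 0.649 in A/J (SD, n = 4 each).

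The transcript that fell was AC160336.1, a long intergenic noncoding RNA on chromosome 14. It had 8.07, 8.38, 6.24 and 10.99 CPM in A/J controls, with 5.73, 3.43, 3.69 and 4.15 CPM in the treated A/J libraries. The lowest control lay above the highest treated library. The log2 fold change was -0.99 ± 0.21 (SE, adjusted p = 0.0286, edgeR), and with 1 library left out in turn it no longer passed in 6 of 16 fits (adjusted p up to 0.148). Those libraries were A/J control replicates 1, 2 and 4 and A/J BMS493 replicates 2, 3 and 4. Its 1053 counts in A/J stood against 1 in B6, where the effect could not be read. Its neighbour in the set, Gm49083, had 5.83, 7.74, 10.2 and 9.22 CPM in A/J controls and 5.17, 5.06, 4.58 and 5.30 CPM with BMS493. The groups of Gm49083 did not overlap either, but its log2 fold change of -0.71 ± 0.22 did not pass (SE, adjusted p = 0.243, edgeR).

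**Figure D5:**
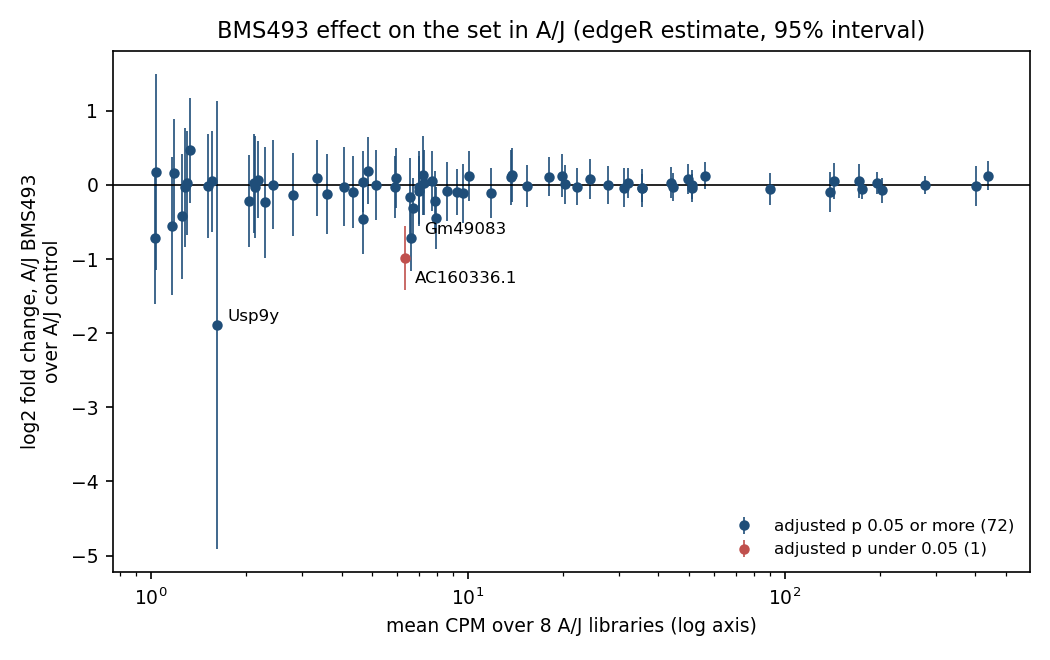
Log2 fold change of A/J BMS493 over A/J control for each of the 73 transcripts, as the edgeR estimate with its 95% interval, against its mean CPM over A/J on a log axis. AC160336.1 is the one transcript with an adjusted p under 0.05, and intervals narrow from left to right as counts rise.

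The copies and their closest genes both had medians near 0 with BMS493 in A/J. None of the 52 copies was called, 2 had an unadjusted p under 0.05, and their median log2 fold change was -0.02. None of the 46 tested closest genes was called either, with 3 at an unadjusted p under 0.05, a median of -0.01, and every interval within 1 log2 unit of 0. Gm15459, the copy of Hspa8, averaged 419.7 CPM ± 51.1 in A/J controls and 457 CPM ± 40.1 with BMS493, and the groups overlapped. Usp9y had the widest interval, from -4.91 to 1.13 log2 units around -1.89.

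In B6 the test had little precision, and the transcripts passed the filter on low counts through A/J. The 95% interval lay within 1 log2 unit of 0 for only 24 of the 73, and the median SE was 0.41 log2 units, against 0.12 over all genes. None of the 73 was called (edgeR, 6 at an unadjusted p under 0.05), and nothing is read from that. Over all genes 0.423% were called, 0.0752% higher and 0.347% lower, and 9.11% had an unadjusted p under 0.05. The difference of the BMS493 effects between strains passed for none of the 73 (edgeR), against 0.00579% of all genes, which is 1 gene, and 5 of the 73 had an unadjusted p under 0.05, against 3.68% of all genes. The same limit held for this test, with the interval within 1 log2 unit of 0 for only 25 of the 73, and nothing is read from the absence of calls. DESeq2 called 1 of the 73 in A/J, none in B6 and none for the difference.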

How the data were processed

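The authors deposited 1 table of raw read counts per library, for 57180 genes, as counts of the STAR aligner without strand and for each strand. Per the submitters' processing notes, FastQC, cutadapt and STAR were used with GRCm39; their versions and the annotation are not given in the sources used here. RNA was extracted with an RNeasy kit and poly(A)-selected, per the labels' protocols. Lines that are not genes (23.1% to 28.3% of reads) stayed out of library sizes. The first strand held 51.0% to 52.0% of stranded counts, so the counts without strand were used. Gene names, types and transcripts came from GENCODE M21 (GRCm38), which matched 51884 identifiers and 98.9% of counts; coordinates are therefore not printed.

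The members and the gene lists were chosen with earlier results of these data known. CPM used the sum of gene counts. Copies were found with BLAST 2.17.0 (megablast, word size 20, E-value up to 1e-20) among M21 transcripts: at least 95% identity over at least 50% of the longest transcript of the member. edgeR 4.0.16 in R 4.3.3 (filterByExpr, TMM, robust quasi-likelihood, 1 coefficient per group, 16 libraries, 12 residual degrees of freedom) tested 17276 genes and removed 39904; all 73 members passed the filter, which in B6 rests on their A/J counts. Tests were two-sided, with Benjamini-Hochberg adjusted p under 0.05. The fit was tested on simulated data. Ratios with 1 to 3 B6 counts carry exact binomial 95% intervals, which cover counting error only. Alternatives were RLE scaling, no filter, other strand columns, a replicate block, fewer libraries, other limits of the rule, and DESeq2 1.42.0. A further one took the library set, replicates 1 and 2 against 3 and 4, as a covariate. Named were the 12 coding and the 8 other members with the highest A/J mean, members called with BMS493, those nearest each limit, list members and their list, closest genes, and neighbours that differed. Other members and genes named were chosen after their values had been seen. Tables and figures used Python 3.11.15, pandas 2.3.3 and matplotlib 3.10.9.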

Additional observations from a re-analysis of the deposited data

Results flagged for a closer look

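In groups of 4 libraries, a value was looked at again when its gap to the nearest other library exceeded, as a share of the range of the group, Dixon's 95% limit for 4 values. Only the 21 members named by level, BMS493 call or gene list were searched. Of their 65 groups with at least 10 counts in every library, 4 met this, and chance alone flags about 1 group in 20. Gm8730, the copy of Rplp0, had 232.6 CPM in A/J control replicate 3, while the other 3 controls had 178 to 184 CPM. Gm12666, the coding copy closest to Larp7, had 3.95 CPM in A/J control replicate 4, below the other 3 at 4.75 to 4.87 CPM. Gm15772, the copy of Rpl26, had 9.13 CPM in B6 control replicate 1, below the other 3 at 9.85 to 9.94 CPM. Gm13394, the copy of Gapdh, had 1.49 CPM in B6 BMS493 replicate 1, above the other 3 at 0.687 to 0.759 CPM. The 4 values came from 4 different libraries. Among the members not searched, Tmem181c-ps had 70 counts in A/J BMS493 replicate 4, against 187 to 189 in the other 3 libraries of that group.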

How the results depend on the processing

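The rule gave 121 genes with a divisor of 4 and 45 with 16, against 73 with 8, and 71 to 77 when 1 library was left out, with 71 to 73 of the 73 among them. With controls alone 71 of the 73 met the rule, with replicates 3 and 4 alone 71, and by the first and second strand-specific counts 67 and 69. Counts of genes called for BMS493 depended on the settings. In A/J 84 genes were called, with 178 without a filter, 133 with only the 8 libraries compared, 158 with DESeq2, and 52 to 121 when 1 library was left out. In B6 73 were called, with 260 without a filter, 27 with only the 8 libraries, 159 with DESeq2, and 27 to 201 when 1 library was left out. For the difference between strains 1 gene was called, with 12 without a filter, 2 with DESeq2, and 1 to 2 when 1 library was left out. Members called in A/J numbered 1, with 2 on only the 8 libraries and 0 to 1 when 1 library was left out. Members called in B6 and for the difference numbered 0 in all alternatives run, which says little, as most intervals were wide there. Genes next to members that differed between A/J and B6 among the BMS493 libraries numbered 36, and 21 with only the 8 libraries. Closest genes lower in A/J numbered 26 to 30 in controls and 27 to 30 with BMS493 over all alternatives run. For AC160336.1, every alternative kept the fall, from -1.16 to -0.84 log2 units, with an adjusted p from 0.000787 to 0.148. Of 483 alternative A/J means of 21 named members, 475 moved by under 1 SD, and Masp2 moved furthest (37.9 and 43.1 CPM by strand). The causes of these shifts were not tested.

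Replicate numbers did not pair the libraries: deviations of same-numbered A/J libraries correlated at -0.02 to 0.09, and of B6 libraries at -0.07 to -0.01. With the replicate block, 92 genes were called in A/J, 2 of them members, 71 in B6 and 1 for the difference. The rule picks transcripts with low B6 levels, so B6 tests rest on few counts for many of them: 8 had 1 to 3 counts and 27 had over 100 over the 8 B6 libraries. A/J sequence and reads were not analysed here.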
